A study of Mus musculus with 6 samples.

Results

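Cytosolic ribosomes are built from ribosomal RNA and a fixed set of ribosomal proteins, each needed in about equal amounts, that form a large and a small subunit. The genes described here are those whose symbol begins with Rpl or Rps followed by a number and at most 1 letter a, x or l, together with Rpsa, Rplp0, Rplp1 and Rplp2. The rule found 81 genes among the 24421 rows of the deposited table, 49 of the large and 32 of the small subunit. It also takes in the tissue-restricted or stress-linked relatives Rpl3l, Rpl10l, Rpl39l, Rps27l and Rps4l. It misses a few true ribosomal proteins whose symbols have another form, such as Fau, Rps3a1 and Rack1, which these tables list as Gnb2l1. Members were chosen by symbol and not by value.

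RNA-seq was made from the anterior palatal mesenchyme of C57BL/6 mouse embryos at E12.5, with the epithelium removed by Dispase II. The labels give 3 biological replicates each of wildtype and of Wnt1Cre;Meis2f/f, in which a Cre recombinase under Wnt1 control, active in neural crest, acts on floxed Meis2, a homeodomain transcription factor gene. The wildtype group is not said to carry Cre or the floxed allele, so an effect of either alone cannot be told apart from loss of Meis2. The files are the authors' own comparisons and hold no value per library. The design text describes each table as a single pair of libraries, but base means of genes with 1 read show that the first rests on all 6 libraries. The second rests on 4 of these 6, with 1 library of each genotype absent, and which replicates are absent is not known. Fold changes are mutant over wildtype on the log2 scale, a direction read from Meis2, and are moderated, which means that they are pulled toward 0. A base mean is a mean normalised read count. It measures a share of the RNA sequenced, so a change in the total number of ribosomes per cell is not seen, and fewer cells of a type and less RNA per cell cannot be told apart in these bulk samples.

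Ribosomal protein mRNAs are among the most abundant in growing cells. Most of them start with a C followed by a tract of pyrimidines, the 5′ terminal oligopyrimidine (TOP) tract, through which the mTOR kinase and the RNA-binding protein Larp1 control their translation. Reduced dose of single ribosomal proteins is known for selective defects, including anaemia, craniofacial defects and a patterning defect of the axial skeleton, and neural crest cells are known to be sensitive to impaired ribosome production. The stretches below show the annotated start of 7 of these genes, from 15 bases before it to 15 bases from it onward, 5′ to 3′ on the gene's strand, from RefSeq on GRCm38.p6. Capitals mark runs of at least 8 bases that are all C or T. The set holds Rps25, called in the comparison of 4 libraries, the stalk genes Rplp2 and Rplp0, the known dose-sensitive genes Rpl38, Rpl24 and Rpl35a, and Rps6, the target of the S6 kinases.
Rps25 (chr9:44407699-44407728, plus strand): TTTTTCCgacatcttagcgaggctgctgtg
Rplp2 (chr7:141447636-141447665, plus strand): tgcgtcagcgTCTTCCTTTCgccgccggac
Rps6 (chr4:86857353-86857382, minus strand): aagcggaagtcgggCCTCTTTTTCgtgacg
Rpl38 (chr11:114668565-114668594, plus strand): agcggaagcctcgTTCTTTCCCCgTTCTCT
Rpl35a (chr16:33056467-33056496, plus strand): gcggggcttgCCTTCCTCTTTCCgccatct
Rplp0 (chr5:115559452-115559481, plus strand): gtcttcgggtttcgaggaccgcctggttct
Rpl24 (chr16:55966260-55966289, plus strand): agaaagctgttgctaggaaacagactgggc
In Rplp2, Rps6, Rpl38 and Rpl35a (shown at 1 of its 3 annotated starts) a run of C and T lies across the annotated start. In Rps25 only the end of a run of 14 bases, which begins further upstream, is in view, and Rplp0 and Rpl24 have none. Of the 81 genes 60 had an entry in the table of starts. Runs of at least 8 C or T on the gene's strand within 25 bases on either side lay at 33 of their 72 annotated starts (45.8%), against 6464 of 32851 starts of all genes (19.7%). The same runs on the opposite strand lay at 6 of 72 (8.33%) and 7100 of 32851 (21.6%). The median log2 fold change was -0.11 for the 31 measured genes with a run and -0.11 for the 25 without. The search asked for a run anywhere in this window and not for a C at the first base. Genes without a run may still have a TOP tract, so these medians do not compare TOP with other mRNAs.

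The ribosomal protein genes lay slightly and nearly uniformly lower in the mutant, and not one of them passed the test in the comparison of all libraries. In that comparison 2 genes had a base mean of 0, 3 had one between 0 and 10, and 76 had at least 10 and are called measured. Of the 76, 70 had a log2 fold change below 0. The median was -0.11, a moderated ratio of 0.924 to the wildtype level, and the quartiles were -0.14 and -0.08. Over all 14559 genes measured in the same way the median was -0.01 and 53.9% lay below 0. A base mean of 1000 or more was reached by 69 of the ribosomal protein genes. Among the 3234 other genes at that level the median was -0.02 and 58.2% lay below 0. Only Rpl17 lay more than 0.25 from 0, and the other 75 lay within it. All members were measured in the same libraries, so they are not replicates and the count below 0 is not a test. The median standard error of a measured member was 0.116. None was called at an adjusted p under 0.05 (authors' DESeq2 Wald test, 0 lower and 0 higher), where 2.90% of all genes tested were called, 1.16% lower and 1.75% higher. By unadjusted p under 0.05, 2 members were lower and 0 were higher, where 10.5% of all genes tested passed, 5.11% lower and 5.38% higher. The smallest absolute log2 fold change called among all 3303 genes at a base mean of 1000 or more was 0.28, over 104 called genes. The p-values measure the spread between the samples that the labels call biological replicates.

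**Figure D1:**
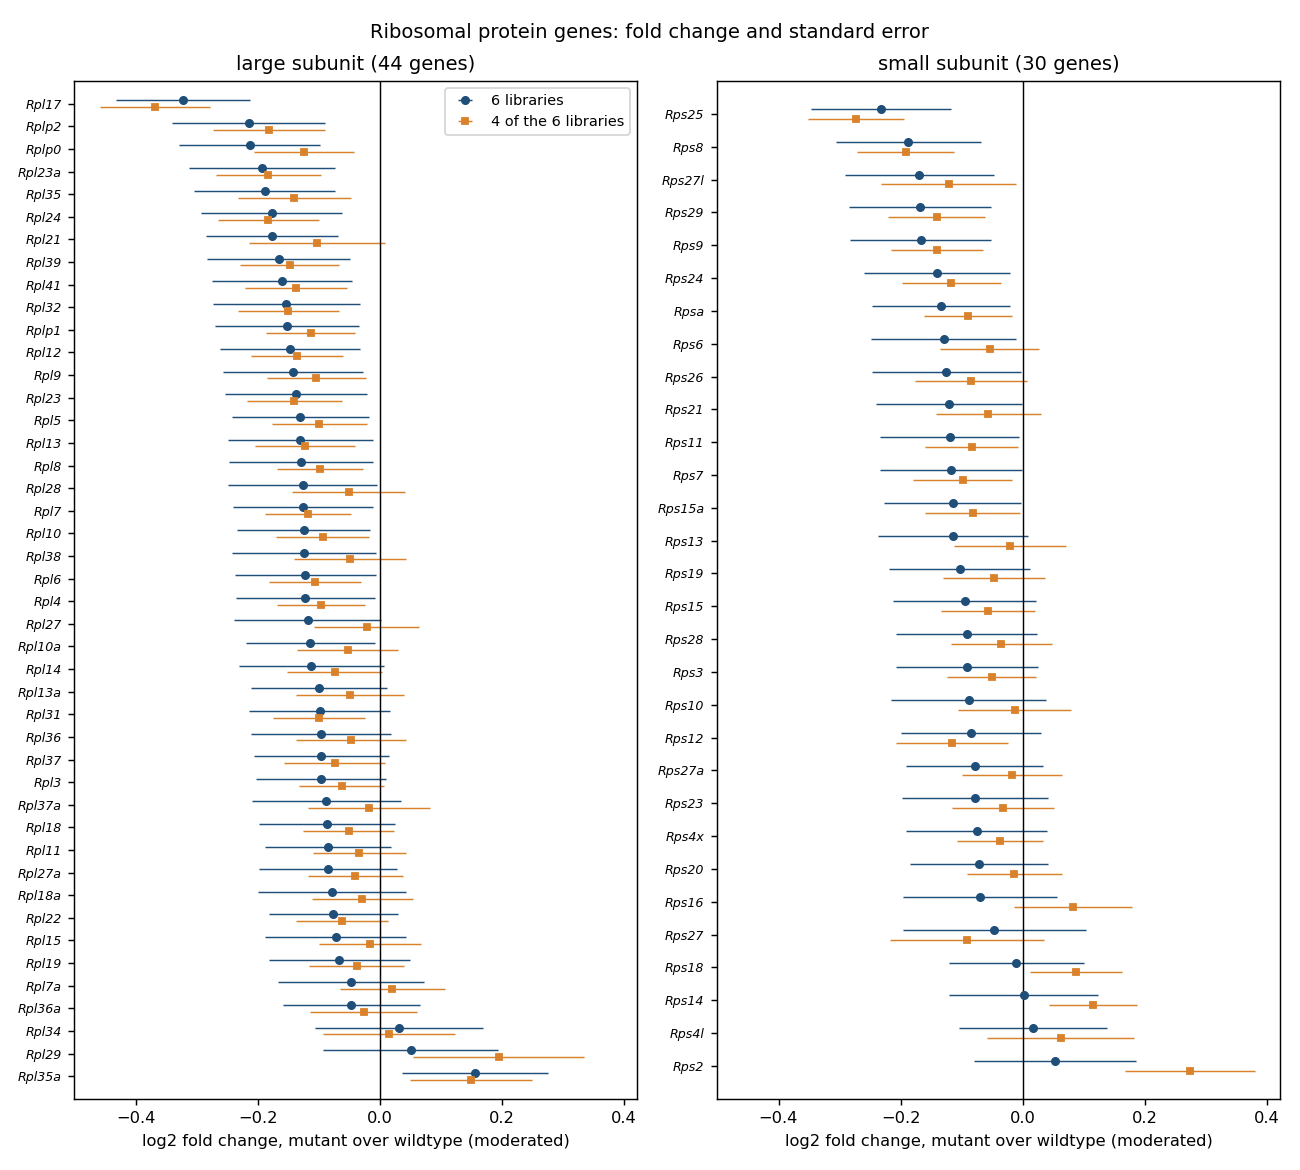
Moderated log2 fold change (horizontal axis) of 74 of the 76 measured ribosomal protein genes, with bars of 1 standard error, by subunit and ordered by the value with 6 libraries. Circles are the comparison of 6 libraries and squares that of 4 of them. With 6 libraries 68 of the 74 genes lie below 0 and only Rpl17 lies beyond 0.25 from it.

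Both subunits had a median below 0, in the same libraries. The large subunit had a median log2 fold change of -0.12 over 44 measured genes, 41 of them below 0, and the small subunit -0.09 over 32 genes, 29 of them below 0. The range of the small subunit, from -0.23 to 0.05, lay within that of the large, from -0.32 to 0.16. The 2 comparisons share libraries, so their values are given side by side and not as a replication. With 4 libraries the medians were -0.06 for all members, -0.08 for the large and -0.05 for the small subunit, against -0.0017 for all genes, and 65 of the 76 members lay below 0, against 50.7% of all genes. Of the 76, 60 lay nearer to 0 with 4 libraries than with 6, and 5 went from below to above it.

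With 4 libraries 2 of the 76 measured members were called, Rpl17 and Rps25, both lower. Of all genes tested, 2.30% were called, 0.990% lower and 1.31% higher. Rpl17 encodes a protein that lines the tunnel through which the nascent chain leaves the large subunit. It lies on chromosome 18 and had a base mean of 2351 with 6 libraries and 2597 with 4 in the authors' deposited tables. Its log2 fold change was -0.32 (adjusted p 0.0907, SE 0.110, DESeq2 Wald test) in the authors' deposited table of 6 libraries. In the authors' deposited table of 4 it was -0.37 (SE 0.0901, adjusted p 0.00348, DESeq2 Wald test), a moderated ratio of 0.774 to the wildtype level. Rps25, a protein of the small subunit known to be needed for translation from some viral internal entry sites, lies on chromosome 9 (44407139 to 44410427, GRCm38, plus strand). Its base mean was 3659 and its log2 fold change -0.23 (adjusted p 0.442, SE 0.114) in the authors' deposited table of 6 libraries. In the authors' deposited table of 4 libraries its log2 fold change was -0.27 (SE 0.0787, adjusted p 0.0270, DESeq2 Wald test). The 2 genes were the lowest of all measured members in both comparisons. The Rps25 locus overlaps Ccdc84 and Trappc4 on the opposite strand, and the strand setting of the counting was not given in the sources used here, so reads of the overlap cannot be assigned with certainty. Of the Rpl17 transcript, 78.7% of all stretches of 50 bases also occur in annotated transcripts of other loci, so its count depends on how such reads were treated. By unadjusted p under 0.05 with 4 libraries, 6 members were lower and 1 was higher, where 9.41% of all genes tested passed, 4.72% lower and 4.69% higher. Strongly expressed genes passed more often. Among the 3234 other genes at a base mean of 1000 or more, 344 were lower and 219 higher by unadjusted p, and 80 lower and 66 higher were called. The 69 members at that level held all 6 of the lower ones, both called genes and none that was higher.

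Of the stalk proteins, which recruit the elongation factors to the large subunit, Rplp2 and Rplp0 followed next after Rpl17 and Rps25 among the lowest values with 6 libraries. Rplp2 lay at -0.22 on the log2 scale (adjusted p 0.598, SE 0.126) and Rplp0 at -0.21 (adjusted p 0.535, SE 0.115), by the DESeq2 Wald test of 6 libraries in the authors' deposited table. Rplp1, their partner, was at -0.15 in the authors' deposited table of 6 libraries. With 4 libraries the 3 stalk genes were at -0.18, -0.12 and -0.11 in the same order in the authors' deposited table, and none was called. Rpl23a, a protein at the tunnel exit, was the fifth lowest at -0.19 in the authors' deposited table of 6 libraries and -0.18 in that of 4. Rpsa, a small subunit protein also known as the laminin receptor, was at -0.13 in the authors' deposited table of 6 libraries. With 6 libraries these 5 values lay within 2 standard errors of 0, and none was called in either table.

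At the other end, 6 measured members lay above 0 with 6 libraries, and all 6 also did so with 4. Rpl35a, mutated in some families with Diamond-Blackfan anaemia, had the highest value, at 0.16 on the log2 scale (adjusted p 0.751, SE 0.120) in the authors' deposited table of 6 libraries and 0.15 in that of 4 libraries (DESeq2 Wald test). Rps2 and Rpl29 followed at 0.05 and 0.05 in the authors' deposited table of 6 libraries, and reached 0.27 (unadjusted p 0.00995, adjusted p 0.207, DESeq2 Wald test) and 0.19 in that of 4. The opposite strand of the Rps2 locus holds Snhg9, a host gene of small nucleolar RNAs. Rpl34 and Rps4l had values of 0.03 and 0.02 in the authors' deposited table of 6 libraries. Members that went from below to above 0 with 4 libraries included Rps16, at -0.07 and 0.08, and Rps18, at -0.01 and 0.09, in the authors' deposited tables of 6 and 4 libraries, and neither was called in either.

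A chosen list of 13 members known for the consequences of reduced dose, not a complete one, had 12 values below 0. Values ran from -0.18 to 0.16 on the log2 scale around a median of -0.12, with adjusted p from 0.671 to 0.921 (DESeq2 Wald test, 6 libraries). Rpl38, needed for patterning of the axial skeleton, was at -0.12 (SE 0.118) in the authors' deposited table of 6 libraries. Rpl24, mutated in the Belly spot and tail mouse, was at -0.18 (SE 0.116) there, the lowest of the 13 in the authors' deposited table. Rpl5 and Rpl11, which as free proteins bind Mdm2 and stabilise p53, were at -0.13 and -0.08 in the authors' deposited table of 6 libraries. Rps19, the gene most often mutated in Diamond-Blackfan anaemia, and Rps6 were at -0.10 and -0.13 in the authors' deposited table of 6 libraries. With 4 libraries the median of the 13 was -0.05 and the lowest adjusted p 0.380.

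The levels of the paralogs Rpl10l, Rpl39l and Rpl3l, known from other tissues, were at or near 0. Rpl10l, known from male germ cells, was listed at 0 in both tables. Rpl39l, also known from the germ line, and Rpl3l, which replaces Rpl3 in striated muscle, had base means of 2.41 and 2.72 against 3044 for Rpl39 and 9105 for Rpl3 in the authors' deposited table of 6 libraries. Per kilobase of transcript the levels were 2.99 for Rpl39l and 1.98 for Rpl3l. The log2 fold change of Rpl3l was 0.03 (SE 0.069) in the authors' deposited table of 6 libraries. Its base mean was too low for it to count as measured, and it had no adjusted p. Moderated values of so few reads are pulled toward 0, so this value does not show whether Rpl3l changed. In the same comparison 8 of 11 measured muscle markers were called higher, and whether Rpl3l followed them cannot be told. Rps27l, known as a p53 target, was at -0.17 (SE 0.122) with a base mean of 623 in the authors' deposited table of 6 libraries. Rps4l had a base mean of 384 and its X-linked relative Rps4x 7433, with a log2 fold change of -0.08 for Rps4x, in the authors' deposited table of 6 libraries. Rpl22 and its paralog Rpl22l1, which can replace one another in the ribosome, were at -0.08 and -0.22 in the authors' deposited table of 6 libraries, neither called. Rpl7 and Rpl7l1 were at -0.13 and -0.17, and Rpl36a and Rpl36al at -0.05 and -0.21, in the authors' deposited table of 6 libraries. In each of these 3 pairs the paralog outside the symbol rule had the lower log2 fold change, by less than 2 standard errors of either gene. The proteins Fau and Rack1 (listed as Gnb2l1), which the rule also misses, were at -0.09 and -0.05 in the authors' deposited table of 6 libraries.

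Genes of mitochondrial ribosomes, translation and ribosome production had median shifts of about the same size. The 78 genes of mitochondrial ribosomal proteins, whose ribosomes translate only the mitochondrial genome, had a median log2 fold change of -0.12, with 75 below 0 and 0 called either way. Mrpl42 and Mrpl9 were the lowest at -0.24 and -0.24, and Mrps36 and Mrps11 the highest at 0.07 and 0.02, by the 6-library comparison in the authors' deposited table. The 16 translation factors and other proteins whose mRNAs are of the TOP class had a median of -0.12 with 15 below 0 and 0 called. Tpt1 and Eef1d were the lowest at -0.21 and -0.18, and Nap1l1 and Eef2 the highest at 0.01 and -0.05, by the 6-library comparison in the authors' deposited table. The 45 genes of ribosome biogenesis had a median of -0.11 with 41 below 0 and 0 called. Ltv1, which acts in maturation of the small subunit, was the lowest at -0.27, and Nat10 and Polr1b the highest at 0.07 and 0.05, in the authors' deposited table of 6 libraries. Ncl, which encodes nucleolin, came nearest to a call at -0.27 (SE 0.087, adjusted p 0.0690, DESeq2 Wald test) in the authors' deposited table of 6 libraries, and Tcof1, the gene of Treacher Collins syndrome, was at -0.12. The 17 genes that control ribosomal protein mRNAs and translation had a median of -0.07 with 12 below 0 and 0 called. Deptor was the lowest at -0.30, and Tsc1 and Rptor the highest at 0.12 and 0.12, in the authors' deposited table of 6 libraries. Myc, a transcriptional activator of ribosomal genes, was at -0.26 (SE 0.139, adjusted p 0.510, DESeq2 Wald test) and Larp1 at -0.01 by the 6-library comparison in the authors' deposited table. The 18 p53 targets had a median of 0.04, with 8 below 0 and 0 called. Ei24 and Gtse1 were the lowest at -0.24 and -0.21, and Cdkn1a and Eda2r the highest at 0.23 and 0.19, in the authors' deposited table of 6 libraries. With 4 libraries the 5 medians were -0.09, -0.08, -0.08, -0.07 and 0.01 in the same order, and 0 of these genes were called. Counts at an unadjusted p under 0.05 were 2, 0, 4, 2 and 1 with 6 libraries, where 5.11% of all genes tested were lower, and 1, 4, 4, 1 and 0 with 4 libraries, where 4.72% were. All of these were lower in the mutant. Npm1 belongs to both the TOP class and the biogenesis list, and is counted in both with 4 libraries. No difference between these groups and the cytosolic ribosomal proteins was tested.

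**Figure D2:**
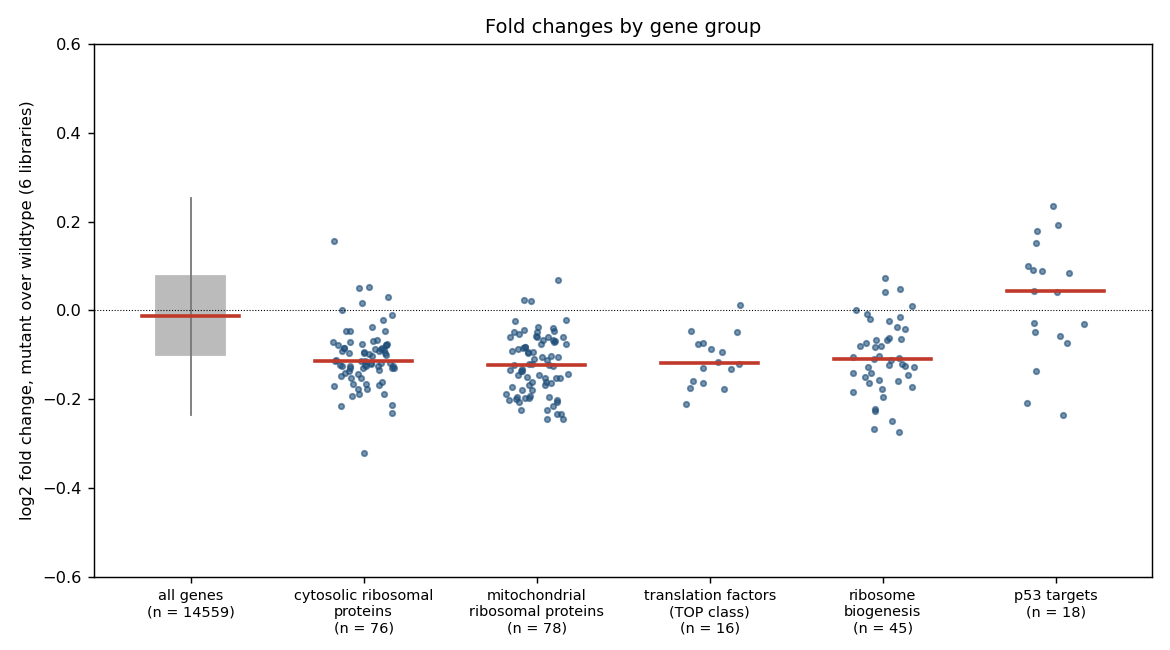
Moderated log2 fold change (vertical axis, 6 libraries) of each measured gene in 5 groups, with red lines at the medians. For all genes the box spans the quartiles and the line the 5th to 95th percentile. Medians of the cytosolic and mitochondrial ribosomal proteins, TOP class and biogenesis groups lie between -0.12 and -0.11, and that of all genes at -0.01.

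The precision of the ribosomal protein genes differed between the tables. In the comparison of 6 libraries the standard error of the log2 fold change had a median of 0.116 over the 69 members at a base mean of 1000 or more, and 90% of them lay between 0.107 and 0.123. The 3234 other genes of that range had a median of 0.0934 and a 5th to 95th percentile of 0.0807 to 0.117. In the comparison of 4 libraries the order was the other way, with a median of 0.0809 for the ribosomal proteins and 0.0890 for the other genes. Every one of the 69 had a lower standard error with 4 libraries than with 6, although fewer libraries went into it, against 2192 of the 3234 other genes (67.8%).

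**Figure D3:**
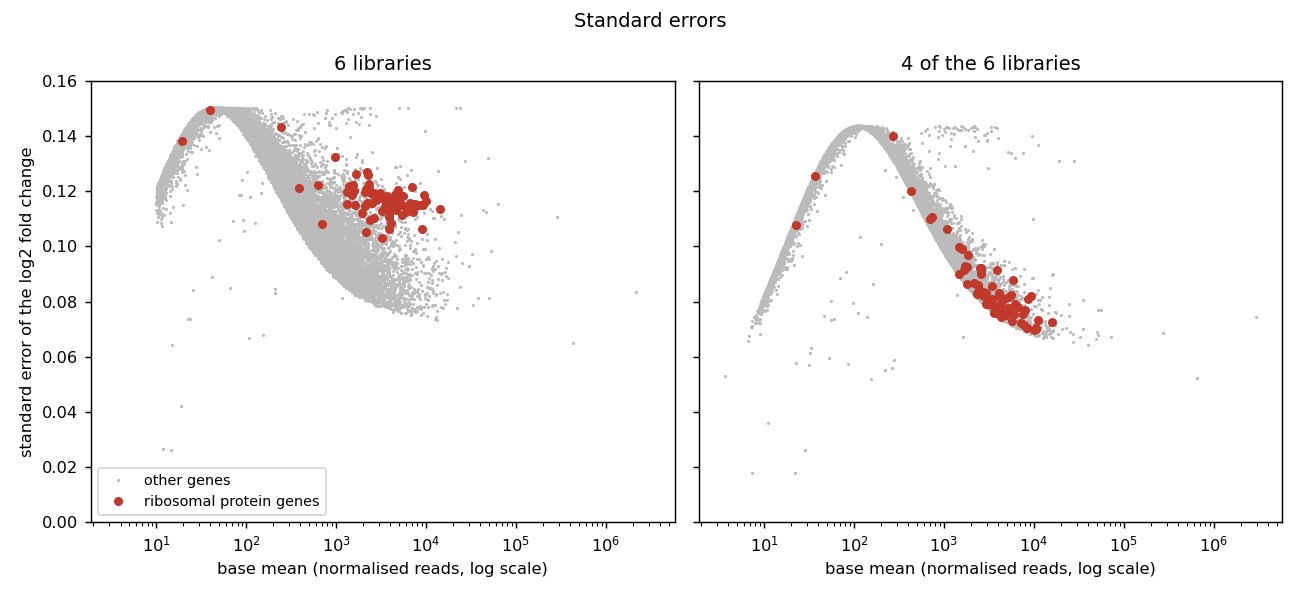
Standard error of the moderated log2 fold change (vertical axis) against base mean (log axis) for ribosomal protein genes (red) and other genes (grey) whose base mean with 6 libraries reaches 10. Strongly expressed ribosomal protein genes sit above most other strongly expressed genes with 6 libraries (median 0.116 against 0.0934). With 4 libraries they sit among these other strongly expressed genes (median 0.0809 against 0.0890). Standard errors are smaller again at the lowest base means.

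The level in the 2 libraries left out could be computed. A size factor scales a library's counts for depth. If 1 read is all that a gene has, its base mean shows the size factor of the library with that read, and the 6 size factors found ran from 0.775 to 1.44. Between the tables they differed by a ratio of 1.029 to 1.035 over the 4 shared libraries. The base means of both tables then give the mean level over the 4 kept and over the 2 left-out libraries. Rpl4, the most abundant member, had a mean of 15515 normalised reads in the 4 kept and 11797 in the 2 left-out libraries. Rpl8, another protein of the large subunit core, had 10312 and 7551, and Rps3, at the entry of the mRNA channel, 10848 and 8112. Rplp2 had 2526 and 1801, and Rpl17 2517 and 2017. For 75 of the 76 measured members the left-out libraries were lower.

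The median ratio of left-out to kept libraries was 0.759 over the 76 members (0.751 to 0.768 over the possible scalings), 0.760 in the large and 0.756 in the small subunit. Among the 69 members at a base mean of 1000 or more it ran from 0.713 to 0.827. The other 3234 genes of that range had a median of 0.968 and a 5th to 95th percentile of 0.769 to 1.16. The exception among the members was Rps27, with a ratio of 1.33 and a base mean of only 39.4 in the authors' deposited table of 6 libraries. Median ratios were 0.792 for the TOP class, 0.825 for mitochondrial ribosomal proteins, 0.902 for ribosome biogenesis, 0.895 for p53 targets and 1.00 for the genes that control ribosomal protein mRNAs and translation, with 8 of these 17 below 1. One library of each genotype was left out, and the mean over the 2 does not show whether both or 1 of them was low, so how much of the difference lies within a genotype is not known. The median log2 fold change of the members was -0.11 with these libraries and -0.06 without them.

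**Figure D4:**
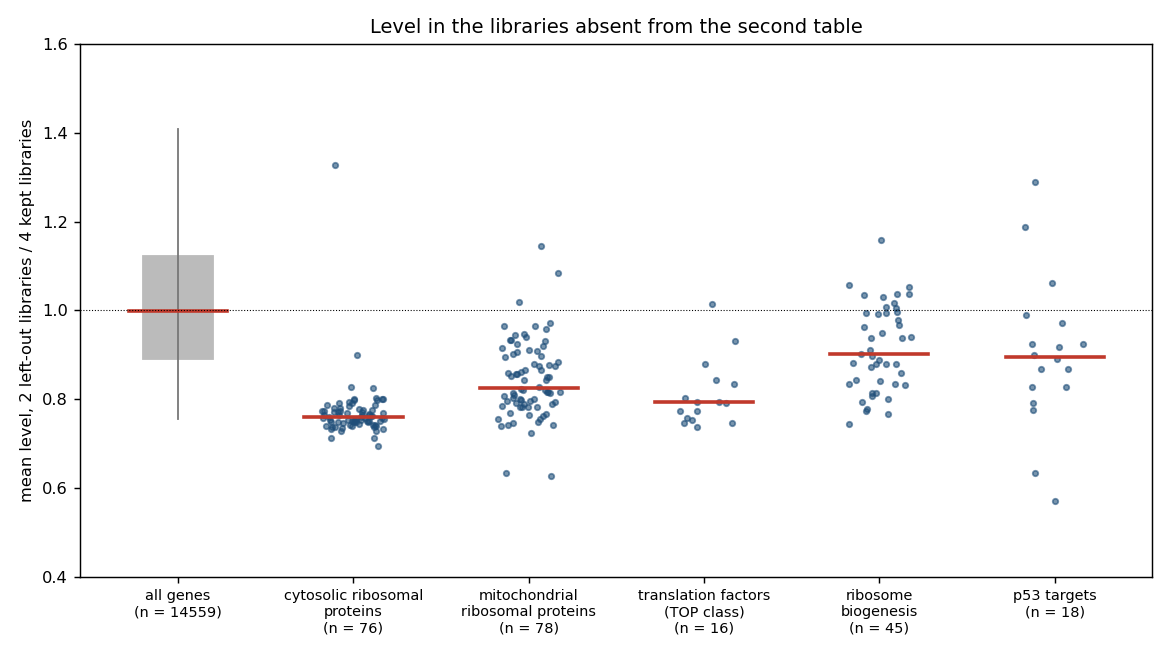
Ratio of the mean normalised level in the 2 libraries absent from the second table to that in the 4 kept (vertical axis), for each measured gene in 5 groups, with red lines at the medians. For all genes the box spans the quartiles and the line the 5th to 95th percentile. Cytosolic ribosomal protein genes form a tight band around 0.759, with Rps27 alone above 1.

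Library composition moved with the same split. The 45S ribosomal RNA precursor Rn45s had a ratio of 0.252 between left-out and kept libraries, and its share of the summed base means was 14.0% with 6 libraries and 17.4% with 4. Ribosomal protein genes made up 1.90% of the summed base means with 6 libraries and 1.93% with 4. Without Rn45s, Lars2 and Malat1 the shares were 2.33% and 2.50%. Between the genotypes Rn45s was not called, with a log2 fold change of -0.15 (adjusted p 0.541, DESeq2 Wald test) in the authors' deposited table of 6 libraries. Meis2 itself was at -0.28 (adjusted p 0.0743) with 6 libraries and -0.33 (adjusted p 0.0213) with 4 in the authors' deposited tables (DESeq2 Wald test). The labelled tissue was checked by 8 palate mesenchyme markers, all measured, with base means that summed to 31922, most of it from Pdgfra (16535) and Prrx1 (10660) in the authors' deposited table of 6 libraries. Sums of the other lists were 10568 for muscle, of which Ttn gave 9640 in the authors' deposited table, 5757 for endothelial, 1784 for erythroid, 1178 for epithelial, 1045 for macrophage and 639 for neuron markers. Markers of other cells moved between the genotypes, with 8 of 11 muscle markers called higher, 4 of 8 neuron markers lower, 3 of 10 macrophage markers higher, and 3 lower and 1 higher of the 8 palate mesenchyme markers, and 0 of 7 epithelial, 0 of 6 endothelial and 0 of 6 measured erythroid markers called. With 4 libraries the calls were 3 higher for muscle, 1 lower for neuron, 2 higher for macrophage, and 3 lower and 2 higher for palate mesenchyme markers, with 0 for the other 3 lists. The other 4 erythroid markers, Hbb-bs, Hbb-bt, Hba-a1 and Hba-a2, which encode globins, were listed at 0. Between left-out and kept libraries the median ratios were 0.838 for muscle, 1.66 for neuron, 1.05 for macrophage, 1.20 for epithelial, 1.20 for endothelial, 1.11 for erythroid and 0.816 for palate mesenchyme markers. The part of the cell makeup and of the Rn45s share in the ribosomal protein values was not tested.

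Levels of single members differed widely. Per kilobase of transcript the median base mean was 3921 over the 80 members with an annotated transcript (GENCODE vM21), and the highest was 11573 for Rps14, a protein of the small subunit platform. Rpl26 was listed at 0 in both tables, and Rpl30, Rpl34, Rps27 and Rpl29, all proteins of the general ribosome, reached 10.4, 40.6, 114 and 341 per kilobase. Ribosomal protein genes have many retrotransposed copies, and reads that match several loci may be dropped or split in counting, and the setting was not given in the sources used here. Of the 80 transcripts, 77 shared at least 1 stretch of 50 bases with an annotated transcript of another locus, and the median share of such stretches was 51.1%. The share did not order the levels (Spearman's rho 0.06 across 80 genes, which share libraries and are not independent). In it, Rps15a and Rps20 have shares of only 6.14% and 7.57% despite matches at 64 and 50 other loci. Their shares and levels per kilobase both rest on unusually long annotated transcripts. Rpl9, with 93.3% shared, reached 10520 per kilobase, while Rps27, with 98.6%, reached 114. The 9 members with matches at 50 or more other loci include Rps2, Rpl29, Rpl21 and Rpl7a. They had a median of 1398 per kilobase, which is the value of Rps15a itself, and none above 3783. The 71 with fewer had a median of 4350 but ran from 0 to 11573. Rpl26, Rpl30, Rpl34 and Rps27 are among these 71. For the lengths of Rps15a and Rps20, 2 of the 9, the annotation gives unusually long transcripts of 5130 and 3706 bases, which lowers their values per kilobase. Before division by length their base means were 7173 and 4657. The median of 1398 and the upper limit of 3783 both rest on these lengths, so a lower level of the 9 was not shown. Median log2 fold changes were -0.12 for members at 10 to 50% and -0.10 for those at 50 to 90% shared.

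**Figure D5:**
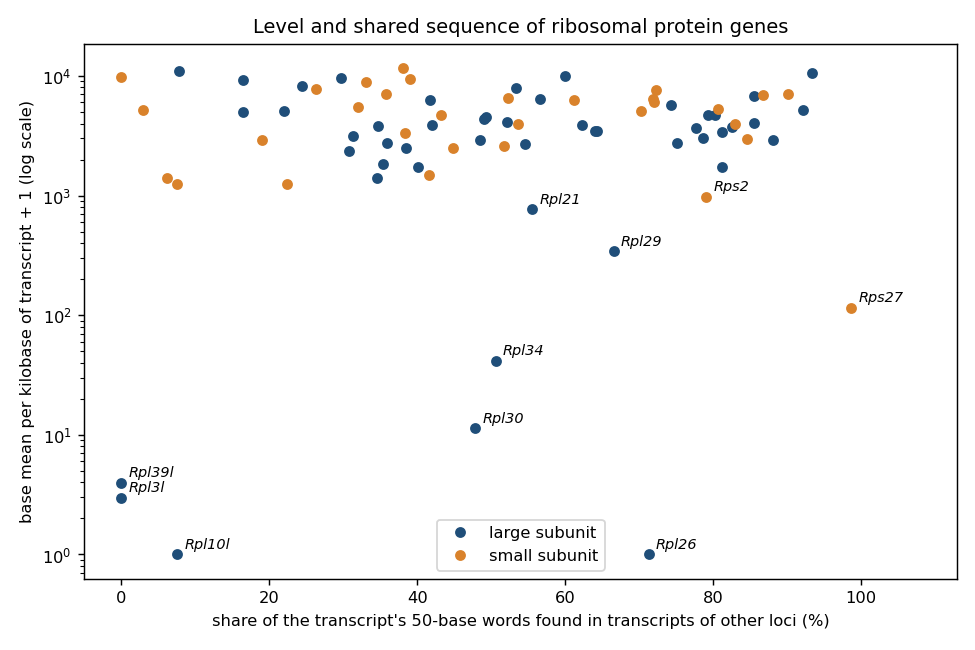
Base mean per kilobase of transcript plus 1 (vertical log axis, 6 libraries) against the share of the transcript's 50-base stretches that also occur in an annotated transcript of another locus, for 80 ribosomal protein genes. Members under 1000 per kilobase are named. They lie at shares from 0 to 98.6%, and Rpl26 and Rpl10l are listed at 0.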

How the data were processed

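Palatal mesenchyme RNA was reverse transcribed, amplified and made into TruSeq v2 libraries, per the labels' protocols. HISAT2, featureCounts and DESeq2 with the builds GRCm38 and mm10 are named in the submitters' processing notes, but no version or setting was given in the sources used here. Each deposited row gives a base mean (a signal, the mean of counts over size factors), a log2 fold change with its standard error, a Wald score, a p-value and an adjusted p-value, all deposited by the authors. No value per library is given, so no model was refitted. Genes were called at an adjusted p under 0.05 of the authors' DESeq2 Wald test, adjusted over all genes. The sign was read as mutant over wildtype, so that Meis2 is lower in the mutant. The deposited base means summed to 15317259 with 6 and 16869001 with 4 libraries, and 14942 and 14548 genes had an adjusted p. Standard errors were at most 0.150, also a result of moderation.

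Symbols unique to a row and in both tables were used for medians and counts over all measured genes. Shares of all genes tested used every row with an adjusted p, 14942 with 6 and 14548 with 4 libraries. Size factors were read from base mean levels shared by at least 50 single-read genes (tolerance 1e-05), and the search and the computation of left-out levels were tested on simulated data. Transcripts were the shortest among the best-ranked principal protein-coding transcripts of GENCODE vM21, and 50-base stretches were compared on both strands with all annotated transcripts of loci that do not overlap the gene. Python 3.11.15 and pandas 2.3.3 were used.

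Named genes were members called in either table, the 5 highest and 5 lowest fold changes and base means, paralog pairs, stalk genes, genes with known dose phenotypes, and the 2 highest and 2 lowest of each other list; marker lists are given as counts. Members and lists were chosen with earlier results of these data known. Rps14, Rps16, Rps18, Rpl9, Rpl26, Rpl21, Rpl7a, Rps15a, Tcof1 and Larp1 were named after their values were seen. A few genes are not reported here by name. The third deposited table repeats rows of the first and was not used.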

Additional observations from a re-analysis of the deposited data

How the results depend on the processing

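The number of ribosomal protein genes called lower was 0 with 6 libraries, 2 with 4 libraries, 1 at an adjusted p under 0.1 and 2 at an unadjusted p under 0.05, and 0 with a base mean of at least 100 or with no filter. None was called higher under any of these. The medians and the counts below 0 of all members and of each subunit kept their direction with 4 libraries, with the other base mean filters, with centring on the median of all genes and without the 5 tissue-restricted or stress-linked paralogs. The median of all members ran from -0.06 (4 libraries) to -0.11. The share of the summed base means moved from 1.90% to 1.93% with 4 libraries and to 2.33% without Rn45s, Lars2 and Malat1. Without these genes it was 2.50% with 4 libraries. The next counts cover genes selected by the naming rules outside the marker lists, not all of them named above. Of these, 64 kept direction and side of the threshold with 4 libraries and 3 gained a call (Rpl17, Rps25 and Meis2). Of those named after their values were seen, Rps16, Rps18, Rpl7a and Larp1 went from below to above 0 without a call. The calls among muscle markers went from 8 to 3, among neuron markers from 4 to 1 and among macrophage markers from 3 to 2. The median of muscle markers moved from 0.55 to 0.35 and of neuron markers from -0.37 to -0.16. The causes were not tested. Leaving out each replicate in turn was not run, since the tables hold no values per library. No paired analysis was possible because the tables hold no values per library.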
